A study of Mus musculus with 18 samples.

Results

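The transcriptional response of wild type mouse bone marrow derived macrophages to interferon (IFN) was measured by comparing 3 libraries made after IFN treatment with 3 libraries of untreated cells. These 6 libraries belong to 18 in all, which cross 2 genotypes (L13a KO, a knockout of the ribosomal protein gene Rpl13a that the series title calls macrophage-specific, and WT controls) with IFN, IL4 or no treatment, in 3 libraries each. The groups used below are WT cells given IFN (replicates 4, 5 and 6), L13a KO cells given IFN, untreated WT cells (replicates 1, 2 and 3), untreated L13a KO cells and IL4-treated WT cells. All groups are macrophages differentiated from bone marrow in culture. The labels call the agents M1 and M2 cytokines and give no IFN type, dose or duration, no mouse strain, age or Cre driver, and do not state whether the 3 libraries in each group had separate sources. The p-values therefore measure the spread between libraries, which may be technical. Messenger RNA was selected on poly-T beads, random-primed and sequenced on an Illumina instrument, and the labels do not say whether strand was kept, so reads of overlapping antisense genes cannot be told apart. Of 21954 genes counted, 12514 passed the filter on low counts and were tested.

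Interferons are cytokines that reset macrophages towards killing microbes and presenting antigen. Type II interferon (IFN-gamma) signals through the kinases Jak1 and Jak2 to STAT factors that bind the GAS element, whereas type I interferons signal through Jak1 and Tyk2 to a complex with Irf9 that binds the ISRE. Among the first genes transcribed is Irf1, a factor that switches on a second wave of genes, and Socs1, an inhibitor of the same kinases that limits the response. In macrophages the later genes include GTPases that attack vacuoles holding pathogens, the machinery of antigen presentation, chemokines that call T cells, and enzymes that make nitric oxide and itaconate.

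IFN raised 1324 genes, 10.6% of those tested, and lowered 875, or 6.99% (edgeR quasi-likelihood test, adjusted p under 0.05). Rises thus made up 60.2% of the calls, but 50% when log2 of the deposited length-scaled abundance (TPM) plus 1 was tested with limma and 48.9% with 0.1 added. The rises were the larger changes: 339 genes rose at least 4-fold (log2 of 2 or more, 2.71% of those tested) and 127 of them at least 16-fold (1.01%), against 248 (1.98%) and 63 (0.503%) that fell as far. The median log2 fold change over all tested genes was -0.02. The shares of 10.6% and 6.99% are the background for every count below of list members called higher or lower in WT cells after IFN. When each of the 6 libraries was left out in turn, 882 of the 1324 rises (66.6%) and 403 of the 875 falls (46.1%) were called every time, as were 289 of the 339 rises of at least 4-fold and 139 of the 248 such falls. The 3 libraries of one group lay wholly above or below those of the other for 2337 genes higher after IFN (18.7%) and 2328 lower (18.6%).

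**Figure D1:**
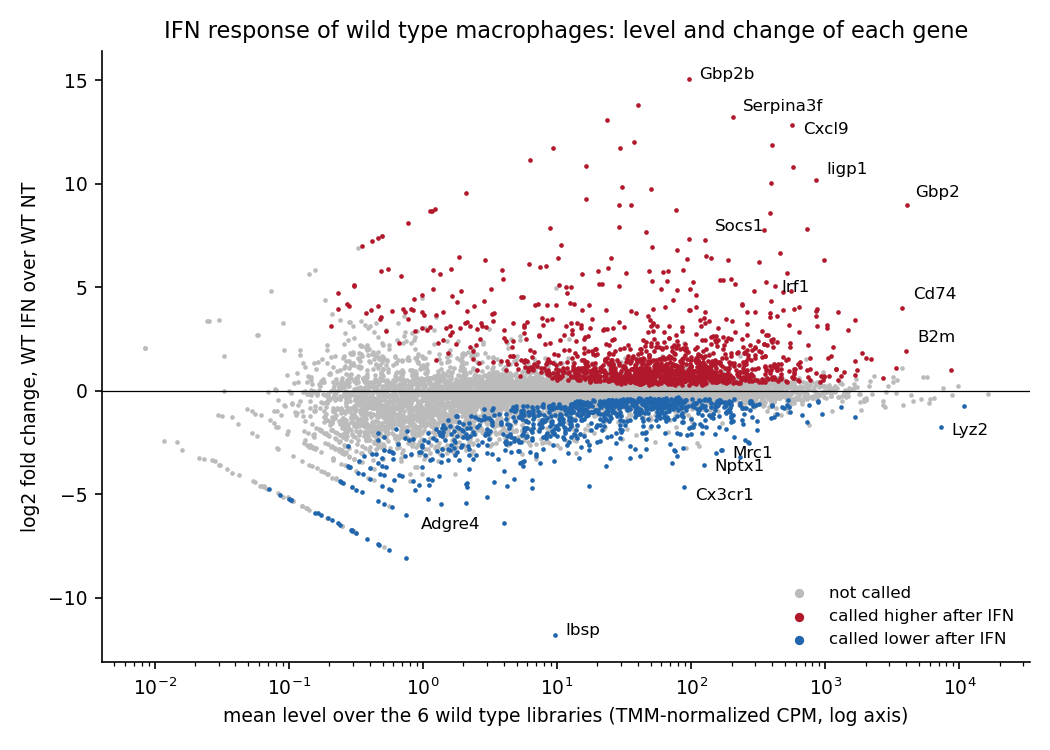
Mean expression over the 6 wild type libraries (horizontal, CPM, that is counts scaled to library size, log axis) against the log2 fold change of IFN-treated over untreated cells (vertical), 1 point a gene, with genes called higher, called lower and not called in separate colours and some of the genes described in the text named. The 1324 called rises reach further from 0 than the 875 called falls; genes without a count in the 6 libraries are not drawn, and the fitted change of a gene at 0 in a group depends on a small added count.

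The changed genes took up much of the message pool. Genes called higher made up 23.8 ± 2.32% of the deposited TPM in the IFN libraries, against 8.76 ± 0.621% in the untreated ones (SD, n = 3 each). Those called lower made up 4.83 ± 0.41% after IFN, against 10.3 ± 0.178% without it. On this per-length scale B2m, the light chain of MHC class I, was the 3rd most abundant transcript after IFN and the 19th in untreated cells, while Cd74, the MHC class II invariant chain, stood 7th after IFN and 233rd without it. Gbp2, a guanylate binding protein, stood at rank 15 after IFN and 6967 in untreated cells. Lyz2, the lysozyme of macrophages, stood 18th after IFN and 5th in untreated cells. In bulk RNA such changes cannot be told apart from changes in the number of cells of a type.

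Totals ran between 19070826 and 20817294 expected counts in the IFN libraries and between 21318306 and 28477342 in the untreated ones. Rpl13a, the gene the knockout targets, was at 156 to 425 CPM in the IFN-treated and untreated L13a KO libraries. In the WT cells described here it was at 437, 552 and 618 CPM after IFN, against 617, 745 and 746 CPM in untreated cells, where the groups just overlapped and the gene was not called (log2 fold change -0.39, adjusted p = 0.557). Y-linked transcripts were present in IFN libraries 4 and 5 and in untreated library 1 and at or near 0 in the others, so the libraries within each group differed in this respect. Within the libraries with them 518 rises and 273 falls were called, and within those without 907 and 284. The counts of untreated libraries 2 and 3 were closer to each other than any other pair of replicates but still differed by more than sampling noise, and both were kept. Summing them into 1 library left 1651 called genes in place of 2199. IFN library 6 was the highest of its group for 225 of the 339 genes that rose at least 4-fold (66.4%, against 37.5% of all tested genes), and IFN library 5 was the lowest for 178 (52.5%, against 29.7%). Markers of other blood cells were scarce: the summed markers of neutrophils, T and NK cells, B cells, mast cells and erythroid cells were each under 10 CPM (counts scaled to library size) in all 6 libraries. Stromal transcripts are described with the genes that fell. Per-library values below are given in the order 4, 5 and 6 for IFN and 1, 2 and 3 for untreated cells.

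Irf1 (ENSMUSG00000018899, chr11:53770014-53778374, plus strand), the factor of the second wave, was at 705, 713 and 831 CPM after IFN, against 44.7, 31.3 and 33 CPM in untreated cells. The groups were far apart and the IFN libraries close together (log2 fold change 4.37, SE 0.386, adjusted p = 1.26e-06). Stat2, a factor of the type I complex, was at 297, 184 and 315 CPM after IFN, against 50.7, 48.1 and 48 CPM in untreated cells. Stat3, a factor of IL-6 and IL-10 signalling, was at 376, 331 and 340.2 CPM after IFN, against 104, 92.1 and 92.5 CPM in untreated cells. Both rose (log2 fold changes 2.44 and 1.86). Of 7 tested STAT genes 4 rose and none fell, and of 8 interferon regulatory factors 5 rose and none fell, beside 10.6% and 6.99% of all tested genes. One of the rises, Stat5b, was not called without IFN library 4 or 6 or without untreated library 2 or 3. Irf5, named after its values were seen, was not called without IFN library 6 or untreated library 1. Irf7, which amplifies type I interferon production, was at 358, 483 and 1951 CPM after IFN, against 22.9, 40.9 and 37.6 CPM in untreated cells (log2 fold change 4.78, SE 0.768, adjusted p = 4.13e-04). Library 6 was several times above the other IFN libraries, a spread that Irf1 did not show. Irf8, a factor of the myeloid lineage, was at 573, 550.1 and 598 CPM after IFN, against 175, 91.6 and 90 CPM in untreated cells (log2 fold change 2.27, adjusted p = 8.34e-05).

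Of the 7 genes for interferon receptors and their kinases, 2 rose and 1 fell, beside 10.6% and 6.99% of all tested genes. The median log2 fold change of the 7 was 0.18. Jak2, the kinase bound to the IFN-gamma receptor, was at 122, 106 and 94.7 CPM after IFN, against 31.9, 34.6 and 36.9 CPM in untreated cells (log2 fold change 1.64, SE 0.193, adjusted p = 2.16e-05). Tyk2, its counterpart at the type I receptor, rose less (log2 fold change 1.14, adjusted p = 0.0057). Ifnar1, a chain of the type I receptor, fell, with 136, 108 and 105 CPM after IFN, against 210.2, 183 and 184 CPM in untreated cells (log2 fold change -0.73, adjusted p = 0.00788). Ifngr1, the ligand-binding chain of the IFN-gamma receptor, was at 130.2, 148 and 143 CPM after IFN, against 309, 186 and 185 CPM in untreated cells. Its IFN values lay below all untreated ones without a call (log2 fold change -0.69, adjusted p = 0.0777).

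Among 13 feedback inhibitors 7 rose and none fell. Socs1 (ENSMUSG00000038037, chr16:10782240-10785536, minus strand), which blocks the Janus kinases, was at 151, 282 and 318 CPM after IFN, against 1.32, 1.2 and 2.19 CPM in untreated cells. It was close to absent in all 3 untreated libraries and abundant in all 3 after IFN (log2 fold change 7.31, SE 0.532, adjusted p = 1.64e-07). Socs3, the inhibitor best known from IL-6 signalling, was at 123, 155 and 88.9 CPM after IFN, against 9.69, 14 and 17.7 CPM in untreated cells (log2 fold change 3.15, adjusted p = 2.84e-05), whereas Cish, a target of STAT5, stayed low at 2.22, 2.97 and 1.32 CPM after IFN, against 0.546, 0.222 and 0.53 CPM in untreated cells (log2 fold change 2.29, adjusted p = 3.70e-04). Regulators of antigen presentation genes rose as well. Ciita, the master regulator of MHC class II, was at 249, 168 and 188 CPM after IFN, against 3.95, 6.12 and 5.87 CPM in untreated cells (log2 fold change 5.25, SE 0.546, adjusted p = 7.15e-06). Nlrc5, its relative for class I, was at 213, 111 and 133 CPM after IFN, against 23.2, 16.4 and 13.4 CPM in untreated cells (log2 fold change 3.11, adjusted p = 2.29e-04). Batf2, a partner of Irf1 in IFN-activated macrophages, was at 129, 109.8 and 156 CPM after IFN, against 2.5, 3.11 and 1.48 CPM in untreated cells (log2 fold change 5.81, adjusted p = 1.07e-08). Of the 11 class II and related regulators 5 were called higher, and 3 without untreated library 2.

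**Figure D2:**
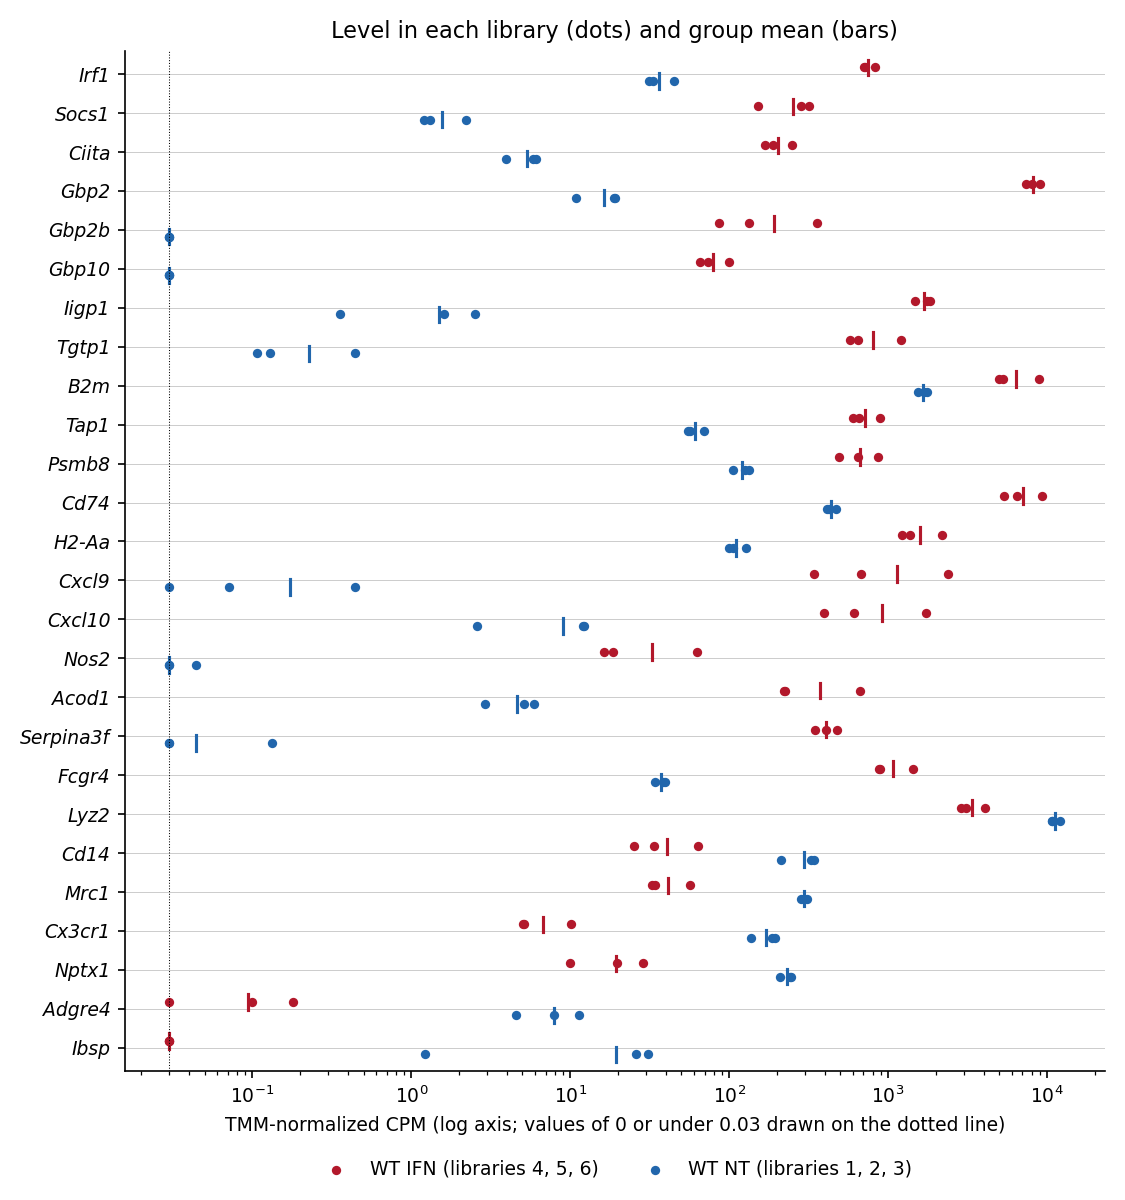
Expression of selected genes in each library (horizontal, CPM, log axis; 1 row a gene), with the 3 IFN-treated libraries and the 3 untreated libraries as points and a bar at each group's mean; values below 0.03, zeros included, are drawn at the dotted line. Irf1 and Gbp2 lie far above their untreated values with little spread, Cxcl9 and Cxcl10 lie highest in IFN library 6, and Mrc1 and Cx3cr1 lie below their untreated values in all 3 IFN libraries.

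The GTPases of cell-autonomous immunity had the highest medians of the gene lists examined. Guanylate binding proteins (GBPs) coat vacuoles and bacteria in the cytosol, and the p47 immunity related GTPases (IRGs) disrupt the vacuoles of parasites such as Toxoplasma. All 10 tested GBP genes and all 7 tested IRG genes were called higher, with median log2 fold changes of 8.18 and 5.67. Gbp2 (ENSMUSG00000028270, chr3:142620602-142638008, plus strand) was at 7992, 7353 and 8979.8 CPM after IFN, against 10.9, 18.9 and 19.2 CPM in untreated cells (log2 fold change 8.96, SE 0.568, adjusted p = 3.44e-08). No count was assigned to Gbp2b in any untreated library, while the IFN libraries held 86.6, 133 and 358 CPM, at least 4991-fold higher when the untreated group is set to a floor of 3 counts (adjusted p = 3.87e-05). Gbp10 was likewise without a count in untreated cells, at 65.8, 73.8 and 99.4 CPM after IFN, at least 2145-fold higher. Gbp4 was at 927, 682 and 768 CPM after IFN, against 0.77, 0.843 and 0.636 CPM in untreated cells (log2 fold change 10.04, adjusted p = 1.38e-09). Gbp2b, Gbp10 and Gbp4 were thus near silent in untreated cells and abundant in every IFN library. The smallest rise of the family was that of Gbp9, at 292, 171 and 231 CPM after IFN, against 26.1, 22.7 and 21.7 CPM in untreated cells (log2 fold change 3.30, adjusted p = 2.04e-04; named after its values were seen as the family's lowest).

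Among the IRGs, Tgtp1 was at 576, 646 and 1197 CPM after IFN, against 0.128, 0.444 and 0.106 CPM in untreated cells (log2 fold change 11.86, adjusted p = 2.19e-08). Iigp1, the best studied effector against Toxoplasma vacuoles in mice, was at 1834, 1769 and 1472 CPM after IFN, against 0.353, 1.6 and 2.51 CPM in untreated cells (log2 fold change 10.16, adjusted p = 2.05e-08). Irgm1, a regulator that sits on the host's own membranes, had a higher untreated level, at 996, 1022 and 1263 CPM after IFN, against 50.1, 76 and 84.8 CPM in untreated cells (log2 fold change 3.96, SE 0.255, adjusted p = 3.93e-08). Igtp, also called Irgm3, was at 797, 965 and 1278 CPM after IFN, against 17.1, 22.3 and 20.2 CPM in untreated cells (log2 fold change 5.67, adjusted p = 1.39e-09). Members of both families share near-identical stretches, and the deposited counts are estimates that divide shared reads, so the split between close paralogs is uncertain. Within the libraries with Y-linked transcripts (IFN 4 and 5 against untreated 1) and within those without (IFN 6 against untreated 2 and 3) all 17 genes of both families were again called higher.

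Several genes with strong rises had an interferon element in the promoter. The RefSeq promoters (GRCm38.p6, 250 bases before to 50 after each start, written on the gene's strand) of 7 such genes are printed to show the elements and their place, with the match in capitals. Capitals mark the GAS letters TTCNNNGAA in Irf1 (chr11:53769764-53770063, plus strand), Serpina3g (chr12:104235897-104236196, plus strand) and Serpina3f (chr12:104214294-104214593, plus strand). They mark the ISRE, searched as GAAA, then any 2 bases, then GAAA, or as TTTC, any 2 bases and TTTC where the element lies on the other strand, in Gbp2 (chr3:142620413-142620712, plus strand), Gbp2b (chr3:142594597-142594896, plus strand), Socs1 (chr16:10785487-10785786, minus strand) and Cxcl10 (chr5:92348840-92349139, minus strand).
Irf1: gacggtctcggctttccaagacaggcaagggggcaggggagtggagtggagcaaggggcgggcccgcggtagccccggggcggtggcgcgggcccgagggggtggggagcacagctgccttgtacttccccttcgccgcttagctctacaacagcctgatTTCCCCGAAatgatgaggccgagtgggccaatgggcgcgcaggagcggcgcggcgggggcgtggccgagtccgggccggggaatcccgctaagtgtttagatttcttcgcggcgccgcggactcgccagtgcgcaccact
Serpina3g: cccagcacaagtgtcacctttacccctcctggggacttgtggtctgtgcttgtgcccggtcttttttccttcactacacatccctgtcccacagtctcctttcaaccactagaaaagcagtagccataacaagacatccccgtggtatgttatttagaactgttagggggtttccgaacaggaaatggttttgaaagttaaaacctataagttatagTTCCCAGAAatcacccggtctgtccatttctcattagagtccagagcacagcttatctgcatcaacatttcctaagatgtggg
Serpina3f: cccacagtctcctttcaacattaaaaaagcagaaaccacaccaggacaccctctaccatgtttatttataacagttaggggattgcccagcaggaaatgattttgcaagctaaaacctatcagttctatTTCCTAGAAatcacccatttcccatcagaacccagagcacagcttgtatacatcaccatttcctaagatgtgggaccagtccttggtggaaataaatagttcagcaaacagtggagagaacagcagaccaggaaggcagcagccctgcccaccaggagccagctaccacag
Gbp2: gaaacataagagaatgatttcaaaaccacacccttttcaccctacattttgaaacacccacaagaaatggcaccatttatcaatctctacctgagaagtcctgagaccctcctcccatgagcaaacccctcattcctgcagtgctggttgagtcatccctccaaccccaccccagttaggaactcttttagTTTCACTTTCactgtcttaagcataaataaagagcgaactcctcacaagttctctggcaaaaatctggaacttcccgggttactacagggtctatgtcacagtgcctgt
Gbp2b: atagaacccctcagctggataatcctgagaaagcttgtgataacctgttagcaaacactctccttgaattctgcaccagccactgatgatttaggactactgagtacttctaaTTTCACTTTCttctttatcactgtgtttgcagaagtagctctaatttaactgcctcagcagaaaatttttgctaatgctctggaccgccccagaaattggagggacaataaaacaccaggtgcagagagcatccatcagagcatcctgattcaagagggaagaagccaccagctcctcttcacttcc
Socs1: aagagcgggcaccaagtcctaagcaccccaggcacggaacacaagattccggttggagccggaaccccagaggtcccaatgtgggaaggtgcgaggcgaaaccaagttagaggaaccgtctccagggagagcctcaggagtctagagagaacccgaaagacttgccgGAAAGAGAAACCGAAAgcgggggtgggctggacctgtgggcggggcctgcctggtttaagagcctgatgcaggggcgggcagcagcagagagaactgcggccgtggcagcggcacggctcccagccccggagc
Cxcl10: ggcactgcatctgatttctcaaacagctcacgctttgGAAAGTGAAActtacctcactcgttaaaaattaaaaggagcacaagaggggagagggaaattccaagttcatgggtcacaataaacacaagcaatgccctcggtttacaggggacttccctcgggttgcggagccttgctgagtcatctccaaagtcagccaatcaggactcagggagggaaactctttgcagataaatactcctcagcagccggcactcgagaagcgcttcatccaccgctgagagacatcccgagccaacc
The GAS letters began 90 bases before the start in Irf1, 33 in Serpina3g and 121 in Serpina3f. Irf1 and Serpina3f each have another RefSeq promoter, which is not printed. That of Irf1 (chr11:53770223-53770522) held no GAS letters, and in that of Serpina3f (chr12:104214383-104214682) they began 210 bases before the start. The ISRE letters began 59 bases before the start in Gbp2, 137 in Gbp2b, 83 in Socs1, where 2 matches overlap, and 213 in Cxcl10.

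Across all genes the elements were more frequent in promoters of genes with larger rises. The ISRE letters, searched on both strands, were in a promoter of 4.13% of the 9667 tested genes with a RefSeq promoter, and in 3.44% of all 32851 promoters of that length. Genes called higher held them in 11.3%, those that rose at least 4-fold in 23.9% of 247, and those that rose at least 16-fold in 29.9% of 87. Genes called lower held them in 3.58% and genes not called in 3.24%. The GAS letters, which read the same on both strands, were in 8.39% of the tested genes. They were in 9.99% of genes called higher, 16.2% of those that rose at least 4-fold and 17.2% of those that rose at least 16-fold, against 7.45% of genes called lower and 8.26% of genes not called. These shares describe letters in a window and were not tested; the windows of Cxcl9, Tap1, Cd274 and Clec9a, which rose strongly, held neither.

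**Figure D3:**
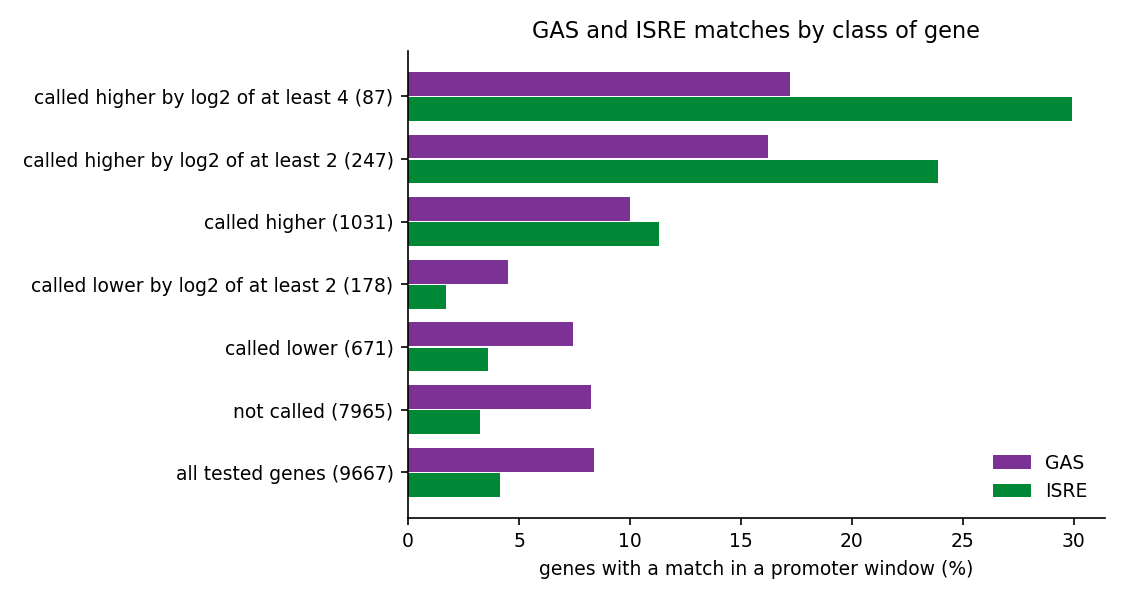
Share of genes with a GAS or an ISRE match in a RefSeq promoter window (horizontal, percent of genes with a promoter, starting at 0) for genes grouped by their change after IFN in wild type macrophages (vertical). The ISRE share climbs to 29.9% among genes that rose at least 16-fold, against 3.24% of genes not called, and the GAS share to 17.2%, against 8.26%.

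Of 18 genes for MHC class I chains and peptide loading 17 were called higher, with a median log2 fold change of 2.19. Of the 18, 11 were called within the libraries with Y-linked transcripts and 16 within those without. B2m was at 4986, 5322 and 8858 CPM after IFN, against 1546, 1682 and 1755 CPM in untreated cells (log2 fold change 1.94, SE 0.25, adjusted p = 4.98e-05). Tap1 (ENSMUSG00000037321, chr17:34187553-34197225, plus strand), which pumps peptides into the endoplasmic reticulum, was at 599.9, 658 and 894 CPM after IFN, against 69.9, 55.1 and 56.6 CPM in untreated cells (log2 fold change 3.57, SE 0.229, adjusted p = 3.84e-08), and Tapbpl, a peptide editor, also rose (log2 fold change 3.41, adjusted p = 5.15e-09). The 5 immunoproteasome genes were all called higher, with a median of 2.46. Psmb8 (ENSMUSG00000024338, chr17:34197721-34201454, plus strand), one of the 3 catalytic subunits that replace those of the constitutive proteasome, was at 489, 647 and 859 CPM after IFN, against 106, 132 and 125 CPM in untreated cells (log2 fold change 2.46, adjusted p = 2.61e-07). The others, Psmb9 and Psmb10, rose by log2 fold changes of 2.61 and 2.52. Among 14 subunits of the constitutive 20S proteasome 6 rose and none fell, by far less, with a median log2 fold change of 0.54.

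The class II pathway followed, with 9 of 12 genes called higher and a median log2 fold change of 3.01. Of the 12, 6 were called within the libraries with Y-linked transcripts and 8 within those without. Cd74 was at 6514, 5342 and 9289.6 CPM after IFN, against 473, 412 and 426 CPM in untreated cells (log2 fold change 4.01, SE 0.426, adjusted p = 7.73e-06). H2-Aa, an alpha chain of class II, was at 1371, 1231 and 2172 CPM after IFN, against 128, 105 and 99.3 CPM in untreated cells (log2 fold change 3.84, adjusted p = 9.04e-05). H2-DMa, part of the exchange factor that loads peptide on class II, was at 392, 455 and 508 CPM after IFN, against 22.5, 28.1 and 27 CPM in untreated cells (log2 fold change 4.13, adjusted p = 1.64e-07). Untreated cells already carried some class II message, and each IFN library lay above all untreated ones. Of 12 costimulatory and checkpoint ligands 6 rose and none fell. Cd86, which costimulates T cells, was at 133, 116 and 173 CPM after IFN, against 6.29, 8.16 and 5.69 CPM in untreated cells (log2 fold change 4.39, adjusted p = 1.14e-07). Cd274, which encodes the checkpoint ligand PD-L1, was at 988, 572 and 556 CPM after IFN, against 30.1, 11.4 and 12.9 CPM in untreated cells (log2 fold change 5.28, SE 0.641, adjusted p = 3.25e-05). Cd40, the receptor for T cell help, was at 39.6, 24.5 and 94.3 CPM after IFN, against 4.72, 5.86 and 5.09 CPM in untreated cells (log2 fold change 3.34, adjusted p = 0.00131).

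Several chromosome windows of 1 Mb (GENCODE positions on GRCm38) held many of the genes that rose at least 4-fold. The window at 34 to 35 Mb of chromosome 17, within the MHC, held 14 of them among 44 tested genes, including Tap1, Tap2, Psmb8, Psmb9, C4b and Cfb. The Ifi200 window at 173 to 174 Mb of chromosome 1 held 9 among 11. The Ifit window of chromosome 19 (34 to 35 Mb) held 6 among 15, the GBP windows of chromosome 5 (105 to 106 Mb) and chromosome 3 (142 to 143 Mb) 6 among 10 and 5 among 9, and the IRG window of chromosome 11 (48 to 49 Mb) 5 among 11. No such window held 4 or more genes that fell at least 4-fold.

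Chemokines split. The CXCR3 ligands, which attract activated T cells, rose strongly, while no other tested CXC chemokine was called higher. Cxcl9 (ENSMUSG00000029417, chr5:92321347-92328079, minus strand) was at 678, 339.8 and 2380.2 CPM after IFN, against 0, 0.444 and 0.0707 CPM in untreated cells (log2 fold change 12.83, SE 1.13, adjusted p = 4.08e-06). Cxcl10 was at 609.5, 396 and 1727 CPM after IFN, against 2.6, 12.2 and 12.1 CPM in untreated cells (log2 fold change 6.67, SE 0.985, adjusted p = 1.95e-04). Library 6 held the highest value of both. These were the only 2 rises among 10 tested CXC chemokines, 3 were called lower and the list's median log2 fold change was -1.95 (-1.28 with members at 0 in a group set to their bound). One of the falls, Ppbp, a platelet chemokine, had no count after IFN and 0.321, 0.665 and 0.778 CPM in untreated cells, and it was called whichever library was left out. The others, named after their values were seen, were Cxcl1, a neutrophil attractant, and Cxcl12, the ligand of Cxcr4. Cxcl1 was not called without IFN library 5 or without IFN library 6 (edgeR adjusted p = 0.0606 and 0.054). Cxcl12 was not called when any 1 of the 6 libraries was left out (edgeR adjusted p between 0.0744 and 0.146). Among 12 CC chemokines 5 were called higher, but 2 without untreated library 3 or without IFN library 6. Ccl12, a monocyte attractant, was at 8.78, 6.04 and 21.4 CPM after IFN, against 0.0963, 0.0887 and 0.318 CPM in untreated cells (log2 fold change 6.11, adjusted p = 1.74e-04). Ccl5, a chemokine for T cells and monocytes, was at 13.6, 19.7 and 136 CPM after IFN, against 1.38, 2.09 and 1.56 CPM in untreated cells (log2 fold change 5.08, adjusted p = 7.12e-04).

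Of 14 cytokines and TNF family ligands 7 rose and none fell. Tnf, the prototype inflammatory cytokine, was at 128, 110.2 and 104 CPM after IFN, against 31.1, 28.2 and 30.5 CPM in untreated cells (log2 fold change 1.93, adjusted p = 5.07e-05). Il18bp, a secreted decoy that neutralises IL-18, was at 398, 330.1 and 509.9 CPM after IFN, against 22.3, 6.74 and 5.87 CPM in untreated cells (log2 fold change 5.14, adjusted p = 1.64e-04). Tnfsf10, the death ligand TRAIL, was at 46.9, 44 and 99.7 CPM after IFN, against 0.899, 1.38 and 1.41 CPM in untreated cells (log2 fold change 5.69, adjusted p = 2.72e-05). The IL-27 subunit gene Il27 was at 6.56, 9.25 and 7.29 CPM after IFN, against 0.385, 0.0444 and 0.0707 CPM in untreated cells (log2 fold change 5.42, adjusted p = 2.76e-04). Complement genes rose in 7 of 15 cases and fell in none. C4b, of the classical pathway, was at 76.1, 18 and 80.5 CPM after IFN, against 0.128, 0.222 and 0 CPM in untreated cells (log2 fold change 8.97, adjusted p = 4.37e-06). Cfb, factor B of the alternative pathway, was at 12.2, 13.3 and 147 CPM after IFN, against 0.193, 0.133 and 0.353 CPM in untreated cells (log2 fold change 7.92, adjusted p = 5.26e-04). The IFN libraries differed several-fold for both, in different order: library 5 was lowest for C4b and library 6 highest for Cfb. C1qb, a subunit of the C1q recognition molecule that macrophages make in quantity, was at 2670.5, 2742 and 4311 CPM after IFN, against 1271, 1001 and 1033 CPM in untreated cells (log2 fold change 1.56, adjusted p = 0.00299).

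Enzymes of nitric oxide, itaconate and tryptophan metabolism were among the genes switched on. Nos2, the inducible nitric oxide synthase, was at 18.6, 16.4 and 63 CPM after IFN, against 0, 0.0444 and 0 CPM in untreated cells; on 1 count in the untreated group the ratio was 2527 (95% counting interval 453 to 99889; adjusted p = 5.07e-05). Acod1, which makes itaconate, was at 222, 224 and 669.5 CPM after IFN, against 2.89, 5.94 and 5.13 CPM in untreated cells (log2 fold change 6.33, SE 0.729, adjusted p = 1.92e-05). Ido1, which starts the breakdown of tryptophan, had 0.908, 3.91 and 7.83 CPM after IFN and no count in untreated cells, at least 109.5-fold higher (adjusted p = 0.00333), and its level stayed low. Kynu, a later enzyme of that route, was at 32.2, 48.2 and 69.2 CPM after IFN, against 0.706, 0.665 and 0.389 CPM in untreated cells (log2 fold change 6.40, adjusted p = 2.65e-05). Wars, the tryptophan tRNA synthetase, was at 383, 320.0 and 409 CPM after IFN, against 45.9, 51.2 and 56.2 CPM in untreated cells (log2 fold change 2.86, adjusted p = 4.99e-08). In all, 6 of 16 listed enzymes and burst components rose and none fell. Arg1, the arginase that competes with Nos2 for arginine, was at 2.12, 1.48 and 4.03 CPM after IFN, against 0, 0.71 and 0.778 CPM in untreated cells. Each IFN library lay above every untreated one, yet the gene was not called (log2 fold change 2.39, adjusted p = 0.0792).

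Antiviral genes of the type I signature rose in 26 of 32 cases, with a median log2 fold change of 2.47 and no fall. Zbp1, a sensor of Z-form nucleic acid, was at 243, 262 and 510.0 CPM after IFN, against 4.72, 9.76 and 10.4 CPM in untreated cells (log2 fold change 5.36, SE 0.481, adjusted p = 1.58e-06). Dhx58 (LGP2), a cytosolic RNA sensor, was at 172, 145 and 252 CPM after IFN, against 26.5, 31.7 and 27 CPM in untreated cells (log2 fold change 2.74, adjusted p = 4.14e-06). Herc6, an ISG15 ligase in mice, was at 193, 149.9 and 294 CPM after IFN, against 21, 27.9 and 24.4 CPM in untreated cells (log2 fold change 3.12, adjusted p = 6.35e-06). Of members named after their values were seen, Ifit2 was at 510.2, 538 and 1402 CPM after IFN, against 11.7, 30.7 and 30.1 CPM in untreated cells (log2 fold change 5.08, adjusted p = 5.39e-05). Isg15, the ubiquitin-like modifier, was at 90.3, 153 and 467 CPM after IFN, against 5.39, 22.2 and 22.4 CPM in untreated cells (log2 fold change 3.83, adjusted p = 0.00398). For both, untreated library 1 lay below the other untreated libraries and IFN library 6 above the other IFN libraries. Within the libraries with Y-linked transcripts 21 of the 32 were called higher and within those without 26. Ifitm3, an entry inhibitor also named after its values were seen, was not called, with 263, 264 and 1251 CPM after IFN, against 105, 299 and 311 CPM in untreated cells (log2 fold change 1.31, adjusted p = 0.243).

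All 11 tested Ifi200 genes, DNA sensors and transcriptional regulators with a PYHIN fold, were called higher, with a median log2 fold change of 3.82. Ifi211 was at 381, 336 and 741 CPM after IFN, against 18.8, 40.2 and 44 CPM in untreated cells (log2 fold change 3.82, adjusted p = 2.16e-05). Ifi204 was at 539, 404 and 827 CPM after IFN, against 75.3, 81.8 and 84.8 CPM in untreated cells (log2 fold change 2.87, adjusted p = 9.62e-06). Of 7 Schlafen genes 5 rose, led by Slfn1, a growth regulator of lymphocytes in mice, at 5.45, 5.94 and 48.7 CPM after IFN, against 0.0963, 0 and 0.566 CPM in untreated cells (log2 fold change 6.42, adjusted p = 0.00717). The genes of both families are close paralogs in clusters, with the same limit on how reads were shared. Of 18 inflammasome and cell death genes 12 rose and none fell: Casp1, the inflammasome protease, was at 269, 287 and 371 CPM after IFN, against 99.5, 84 and 81 CPM in untreated cells (log2 fold change 1.81, adjusted p = 1.14e-05), and Casp12 rose more (log2 fold change 4.18, adjusted p = 9.89e-06).

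Sensing receptors were redistributed. Of 16 Toll-like receptors and adaptors 9 rose and 2 fell. Tlr9, which senses unmethylated DNA, was at 126, 88.4 and 189 CPM after IFN, against 23, 19 and 20.1 CPM in untreated cells (log2 fold change 2.70, adjusted p = 1.79e-04). Tlr11 and Tlr12, which in mice together sense Toxoplasma profilin, were switched on: Tlr11 had 13.7, 11.2 and 13.1 CPM after IFN and no count in untreated cells, at least 345-fold higher (adjusted p = 4.23e-06). Tlr12 was at 27.4, 30 and 40.7 CPM after IFN, against 0.128, 0 and 0 CPM in untreated cells (log2 fold change 9.25, adjusted p = 4.99e-08). Cd14, the co-receptor for bacterial lipopolysaccharide, went the other way, at 25.2, 33.4 and 63.9 CPM after IFN, against 213, 329 and 341 CPM in untreated cells (log2 fold change -2.85, SE 0.459, adjusted p = 4.16e-04). Of the 2 falls only 1 was called without IFN library 5 or without untreated library 3. Among the rises, Tlr6 and Unc93b1, named after their values were seen, were not called without IFN library 6 or without untreated library 2 or 3. Of 6 Fc receptor genes 4 rose and 1 fell. Fcgr4, an activating receptor for IgG in mice, was at 884, 875 and 1442 CPM after IFN, against 34, 38.5 and 39.6 CPM in untreated cells (log2 fold change 4.84, adjusted p = 2.05e-08). Fcgr1, the high-affinity IgG receptor, was at 773, 752 and 1355 CPM after IFN, against 117, 107 and 96.9 CPM in untreated cells (log2 fold change 3.17, adjusted p = 3.05e-06). The fall was Fcgr2b, the inhibitory IgG receptor, named after its values were seen, at 10.4, 5.89 and 15.9 CPM after IFN, against 26.6, 35.4 and 40.8 CPM in untreated cells (log2 fold change -1.68, adjusted p = 0.0138). It was not called without IFN library 5 (log2 fold change -1.39, adjusted p = 0.0653 by edgeR). Cx3cr1 (ENSMUSG00000052336, chr9:119901616-120069879, minus strand), the fractalkine receptor of resident macrophages, was at 5.05, 10 and 5.12 CPM after IFN, against 136, 185 and 193 CPM in untreated cells (log2 fold change -4.66, SE 0.577, adjusted p = 3.87e-05). Cxcr4, the receptor that retains cells in bone marrow, was at 21.5, 10 and 15.4 CPM after IFN, against 209.6, 103 and 107 CPM in untreated cells (log2 fold change -3.16, adjusted p = 0.00186). No IFN library reached the untreated range of either of these.

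Outside the listed pathways the 15 largest rises included genes that untreated macrophages hardly transcribed. Serpina3f, a protease inhibitor gene on chromosome 12, was at 404, 346 and 475 CPM after IFN, against 0, 0.133 and 0 CPM in untreated cells. Its neighbour Serpina3g was at 965, 738 and 1735 CPM after IFN, against 1.12, 0.444 and 0.247 CPM in untreated cells. On 3 counts in the untreated group the ratio for Serpina3f was 11048 (95% counting interval 3780 to 53575), and Serpina3g rose by a log2 fold change of 10.84 (adjusted p = 1.07e-06). Clec9a, a receptor for dead cells known as a marker of cross-presenting dendritic cells, was at 112, 32.2 and 80 CPM after IFN, against 0, 0.0444 and 0 CPM in untreated cells, a ratio of 6081 on 1 untreated count (1091 to 240260). Xcr1, another marker of those dendritic cells, was at 13.2, 10.4 and 15.4 CPM after IFN, against 0.481, 1.11 and 0.601 CPM in untreated cells (log2 fold change 4.16, adjusted p = 2.25e-04), while the 7 listed dendritic cell markers, of which Flt3 was at 0 after IFN, held a sum of 15.8 to 17.2 CPM after IFN, against 8.76 to 11.9 CPM without it. Xcr1 is 1 of the 7 and made up most of that sum after IFN. Of the 4 tested markers 1, Xcr1, was called higher and 1, Cd24a, lower. The log2 fold changes of 3 of the 4 lay below 0, with a median of -0.13. The part of dendritic cells in these values was not tested. Dnase1l3, a DNase of macrophages and dendritic cells, was at 67.5, 33.8 and 76 CPM after IFN, against 0.0321, 0 and 0 CPM in untreated cells, a ratio of 4754 on 1 untreated count (853 to 187830). Klrk1, the NKG2D receptor, was at 42.8, 37.9 and 102 CPM after IFN, against 0.128, 0.0444 and 0 CPM in untreated cells (log2 fold change 9.84, adjusted p = 1.46e-07) while the summed T and NK cell markers stayed at or below 2.28 CPM in all 6 libraries. Il12rb1, the shared chain of the IL-12 and IL-23 receptors, was at 94.2, 109 and 95.1 CPM after IFN, against 0.225, 0.0887 and 0 CPM in untreated cells (log2 fold change 9.76, adjusted p = 2.05e-08). Ly6a, the Sca-1 antigen, was already well expressed and reached 1751, 2256 and 2986 CPM, against 82.1, 217 and 199 CPM (log2 fold change 3.81, adjusted p = 5.89e-06).

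**Figure D4:**
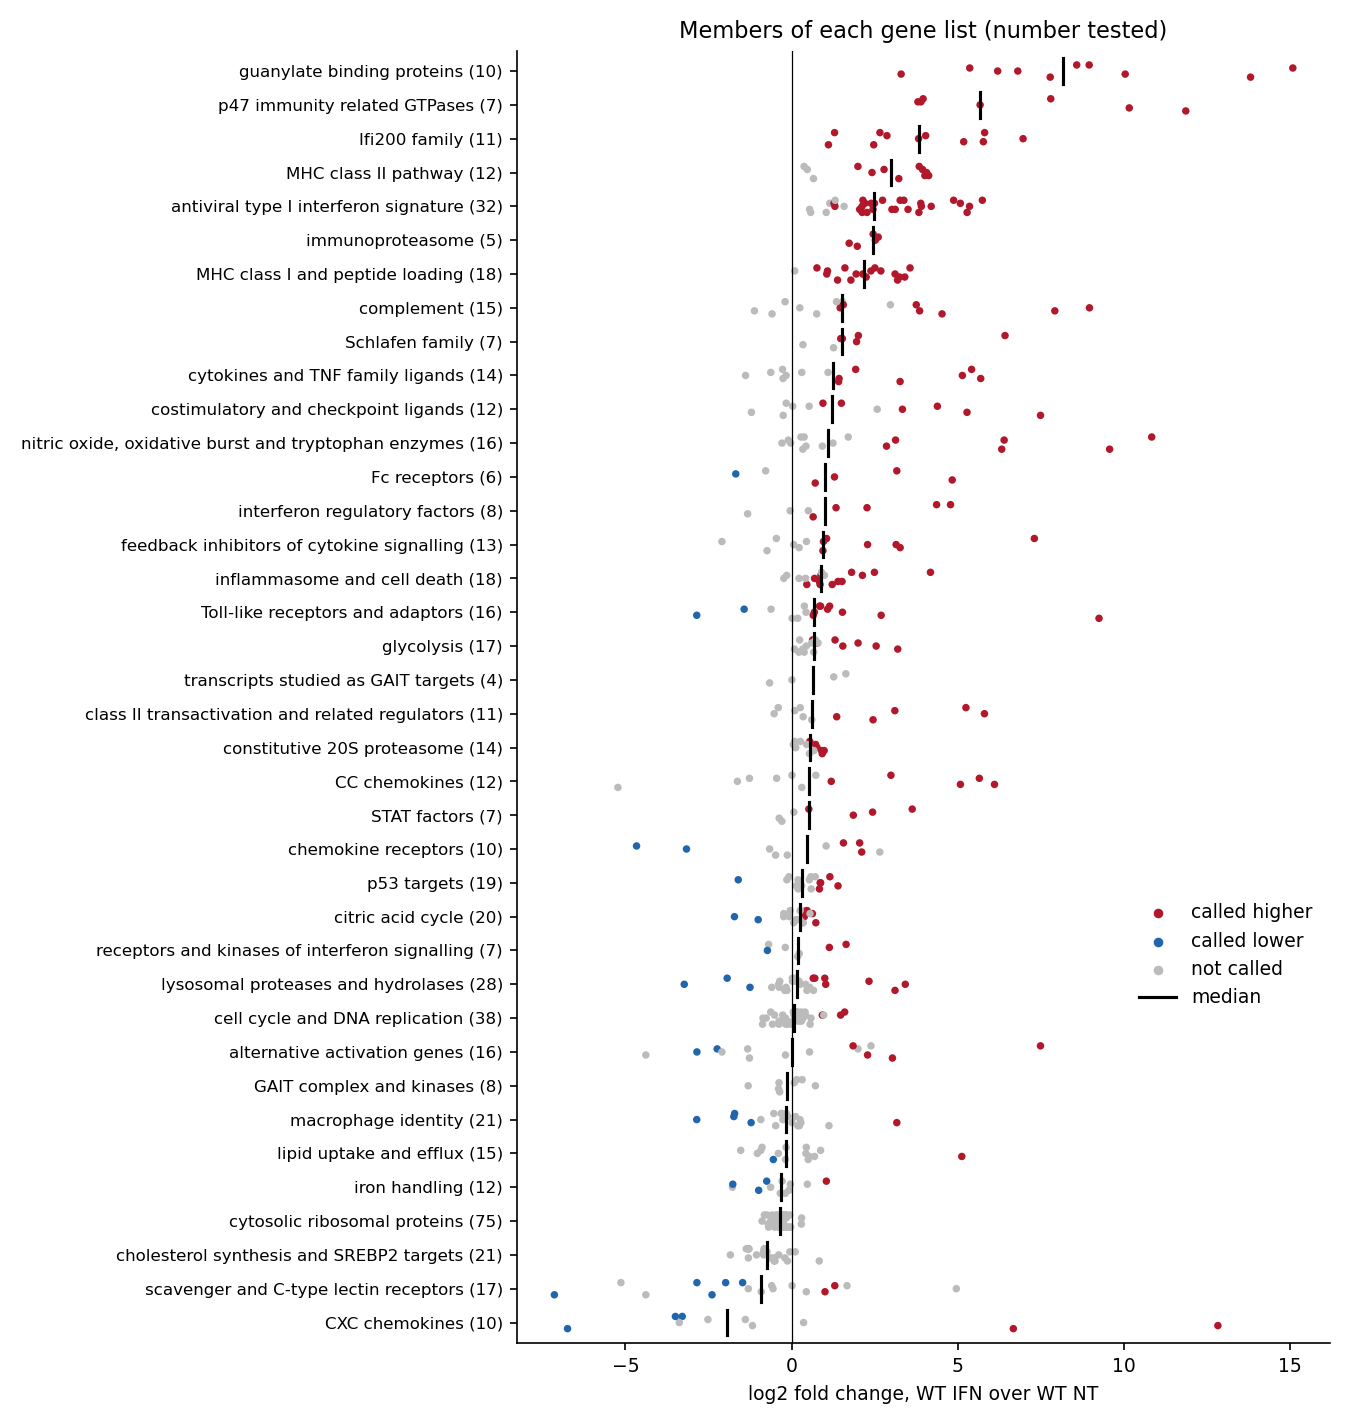
Log2 fold change of IFN-treated over untreated wild type macrophages (horizontal) for every tested member of each gene list (1 row a list, with the number tested), coloured by call, with a black bar at the list's median. GBPs, IRGs, the Ifi200 family and both MHC pathways lie to the right, ribosomal proteins and cholesterol genes lie just left of 0, and CXC chemokines spread to both sides.

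The falls were fewer by edgeR and varied more between IFN libraries. Among genes that fell at least 4-fold the median coefficient of variation was 55.1% in the IFN libraries and 30.8% in the untreated ones. It was 35.1% and 34% among genes that rose at least 4-fold, and 18.6% and 15.1% over all genes. Some genes with such falls had few or no counts after IFN, and the part of low counts in this spread was not tested. Endocytic receptors were among the genes that fell. Of 17 scavenger and C-type lectin receptors 5 fell and 2 rose. Mrc1 (ENSMUSG00000026712, chr2:14229392-14332057, plus strand), the mannose receptor, was at 34.2, 56.6 and 32.6 CPM after IFN, against 309, 284 and 295 CPM in untreated cells (log2 fold change -2.85, SE 0.389, adjusted p = 9.02e-05). Clec4d, a receptor for mycobacterial glycolipids, was at 48, 112 and 83 CPM after IFN, against 365, 444 and 467 CPM in untreated cells (log2 fold change -2.39, adjusted p = 0.00104). Cd163, the haemoglobin scavenger receptor, had no count after IFN and 1.19, 0.665 and 0.46 CPM in untreated cells, at least 14.97-fold lower. Lyz2 was at 2881, 3096 and 4094 CPM after IFN, against 12108, 10677 and 10767 CPM in untreated cells (log2 fold change -1.74, SE 0.52, adjusted p = 0.0297), lower in every IFN library but no longer called when any one of the 6 was left out (adjusted p between 0.0567 and 0.0949). Defining macrophage markers were abundant in all 6 libraries and not called: Adgre1, the F4/80 antigen, was at 1262, 1649 and 2218 CPM after IFN, against 1711, 1995 and 2008 CPM in untreated cells (log2 fold change -0.16, adjusted p = 0.731). Csf1r, the receptor for the growth factor of macrophages, was at 3367, 3022 and 3262 CPM after IFN, against 3727, 3318 and 3365 CPM in untreated cells (log2 fold change -0.11, adjusted p = 0.723). Cebpa, a myeloid factor, was at 104, 145 and 108 CPM after IFN, against 313, 264 and 252 CPM in untreated cells (log2 fold change -1.22, adjusted p = 2.67e-04). Of 21 identity genes 4 fell and 1 rose, beside 6.99% and 10.6% of all tested genes.

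Among the 15 largest falls with at least 5 CPM in untreated cells, Adgre4, a relative of F4/80, was at 0, 0.099 and 0.181 CPM after IFN, against 4.56, 7.94 and 11.3 CPM in untreated cells (log2 fold change -6.38, adjusted p = 6.07e-05). Hpgd, which inactivates prostaglandins, was at 1.01, 5.89 and 3.49 CPM after IFN, against 29.8, 46.6 and 52.7 CPM in untreated cells (log2 fold change -3.63, adjusted p = 0.00296). Nptx1, a pentraxin best known from synapses, was at 19.7, 28.5 and 9.99 CPM after IFN, against 209, 245 and 241 CPM in untreated cells (log2 fold change -3.57, adjusted p = 2.31e-04). Spp1, which encodes osteopontin, lost much TPM and was at 299, 441 and 422 CPM after IFN, against 901, 1144 and 1201 CPM in untreated cells (log2 fold change -1.48, adjusted p = 0.00141). Cd9, a tetraspanin, was at 305, 251 and 182 CPM after IFN, against 569, 562 and 615 CPM in untreated cells (log2 fold change -1.24, adjusted p = 3.23e-04). Stromal and osteoblast transcripts were lower as well, in sum. The 8 listed fibroblast and stroma markers, of which Lum was at 0 in both groups, together were at 83.1, 42.8 and 80.4 CPM after IFN, against 412, 539 and 524 CPM in untreated cells, and the 5 osteoblast markers, with Ibsp and Bglap at 0 after IFN, at 13.7, 9.30 and 5.84 CPM, against 20.3, 54.8 and 46.0 CPM. Of those tested, 1 of 6 and 2 of 4 were called lower. The stromal call was lost without any one of the libraries except untreated 1, and the osteoblast calls numbered 4 without IFN library 4 and 1 without any one of untreated 2, untreated 3, IFN 5 and IFN 6. Ibsp, the bone sialoprotein gene, had no count after IFN and 1.22, 31 and 25.9 CPM in untreated cells, where library 1 stood apart (at least 338-fold lower, adjusted p = 0.00572). The 5 osteoclast markers, 1 of them at 0 in both groups, were not lower in sum. They were at 148, 99.5 and 82.8 CPM after IFN, against 40.4, 123 and 126 CPM in untreated cells. Of the 4 tested, 3 were called lower and 1 higher, and the fall of Acp5 was not called without IFN library 4 or 5 or untreated library 2 or 3. Ctsk, the collagenase of osteoclasts, was at 3.53, 3.31 and 7.47 CPM after IFN, against 20.6, 55.5 and 57.3 CPM in untreated cells (log2 fold change -3.23, adjusted p = 0.00661), whereas Ocstamp, a fusion protein of the same lineage, rose (log2 fold change 3.94, adjusted p = 1.07e-04). The part of non-macrophage cells in these falls was not tested.

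Of 16 tested genes of alternative activation 4 rose and 2 fell, beside 10.6% and 6.99% of all tested genes. Their log2 fold changes lay above 0 for 7 genes and below 0 for 7. The other 2, Chil4 and Retnla, had no count in any of the 6 libraries. Without untreated library 1, IFN library 5 or IFN library 6 only 1 of the falls was called. Tgm2, a transglutaminase used as a marker of IL4-treated macrophages, was at 1975, 2019 and 1553 CPM after IFN, against 320.5, 178 and 178 CPM in untreated cells (log2 fold change 3.04, adjusted p = 4.68e-06). Il4ra, the IL4 receptor chain, was at 389, 454 and 317 CPM after IFN, against 133, 95.8 and 92.2 CPM in untreated cells (log2 fold change 1.85, adjusted p = 1.01e-05).

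Glycolysis genes had 7 rises and no fall among 17, with a median log2 fold change of 0.67. Hk3, the hexokinase of myeloid cells, was at 2019, 1719.5 and 1837 CPM after IFN, against 268, 167 and 173 CPM in untreated cells (log2 fold change 3.20, adjusted p = 5.47e-07). Pfkfb3, which activates phosphofructokinase, was at 141, 99.3 and 109.8 CPM after IFN, against 23, 18.7 and 18.2 CPM in untreated cells (log2 fold change 2.55, adjusted p = 1.15e-05). Slc2a1, the GLUT1 glucose carrier, was at 99.1, 118 and 87.8 CPM after IFN, against 37.6, 40.1 and 45.3 CPM in untreated cells (log2 fold change 1.31, adjusted p = 8.89e-04). In the citric acid cycle 5 of 20 rose and 2 fell, beside 10.6% and 6.99% of all tested genes. Only 3 rose without untreated library 1, IFN library 5 or IFN library 6. Both falls were isocitrate dehydrogenases. Idh1, the cytosolic enzyme, was at 59.7, 56.9 and 52.4 CPM after IFN, against 196, 183 and 176 CPM in untreated cells (log2 fold change -1.72, adjusted p = 1.74e-05). Idh2, its mitochondrial relative, was at 34.8, 49.6 and 36.3 CPM after IFN, against 77.4, 81.6 and 83 CPM in untreated cells (adjusted p = 0.00929; named after its values were seen). Ch25h, which makes the antiviral oxysterol 25-hydroxycholesterol, was at 22.6, 13.2 and 24.7 CPM after IFN, against 0.642, 0.311 and 0.742 CPM in untreated cells (log2 fold change 5.12, adjusted p = 0.00115).

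Cholesterol synthesis genes had a median log2 fold change of -0.74 and only 1 call among 21, and the direction differed between libraries. Within the libraries with Y-linked transcripts (IFN 4 and 5 against untreated 1) 19 of 21 lay above 0 with a median of 0.41, and within those without (IFN 6 against untreated 2 and 3) 2 of 21 did, with a median of -0.96. The only call, a fall, was lost when any one library other than untreated 1 was left out, and 3 falls were called without untreated 1. Among lysosomal enzymes 7 of 28 rose and 3 fell, with 4 rises without untreated library 3. Of all tested genes 10.6% were called higher and 6.99% lower, a share to set beside these counts and those of the iron genes below. Ctsc, which activates granule proteases, was at 2759, 3137 and 3189 CPM after IFN, against 231, 309.9 and 307 CPM in untreated cells (log2 fold change 3.42, adjusted p = 2.05e-08). Ctsh, an aminopeptidase of the same family, was at 766, 794 and 1163 CPM after IFN, against 217, 166 and 158 CPM in untreated cells (log2 fold change 2.33, adjusted p = 3.06e-06). Of 12 iron genes 1 rose and 3 fell, and without untreated library 1 there were 5 falls. The rise was Slc11a1, a metal transporter of the phagosome, named after its values were seen, at 608, 546 and 737 CPM after IFN, against 408, 254 and 252 CPM in untreated cells (log2 fold change 1.05, adjusted p = 0.0307). It was not called without untreated library 2 or 3 or without IFN library 4 or 6 (edgeR adjusted p between 0.058 and 0.11). Among the falls, Trf, the transferrin gene, was at 67, 58.2 and 93 CPM after IFN, against 325, 201 and 216 CPM in untreated cells (log2 fold change -1.77, adjusted p = 2.28e-04), and Ncoa4, the receptor that brings ferritin to the lysosome, was lower by a log2 fold change of -0.99. The other, Ftl1, the ferritin light chain, also named after its values were seen, was at 5966, 9668 and 8774 CPM after IFN, against 11833, 14727 and 14385 CPM in untreated cells (log2 fold change -0.75, adjusted p = 0.0349). It too was not called without any one of those 4 libraries (edgeR adjusted p between 0.0613 and 0.129).

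Of 38 genes of the cell cycle and DNA replication 3 rose and none fell, beside 10.6% of all tested genes called higher, and the median log2 fold change was 0.09. Ccnd1, the D-type cyclin induced by growth factors, was at 1108, 1346 and 998 CPM after IFN, against 338, 398 and 404 CPM in untreated cells (log2 fold change 1.60, adjusted p = 0.00124). The replication clamp Pcna was at 668, 856 and 773 CPM after IFN, against 378, 429 and 402 CPM in untreated cells (log2 fold change 0.93, adjusted p = 0.0103). Of 19 p53 targets 5 rose and 1 fell. Cdkn1a, the cell cycle inhibitor p21, was at 453, 512 and 492 CPM after IFN, against 265, 192 and 197 CPM in untreated cells (log2 fold change 1.15, adjusted p = 0.00202). Sesn1, a stress-induced regulator of growth, was at 46.8, 66.3 and 60 CPM after IFN, against 205, 162 and 159 CPM in untreated cells (log2 fold change -1.60, adjusted p = 1.24e-05). None of 75 cytosolic ribosomal protein genes was called by edgeR, although 73 lay below 0, with a median log2 fold change of -0.36. At an unadjusted p under 0.05 there were 20, all lower. DESeq2 called 8 of them lower, limma on TPM 18, edgeR without IFN library 6 called 9 and without untreated library 1 called 4. The 8 tested genes of the GAIT translational control complex and its kinases and 4 tested transcripts studied as its targets had no edgeR call. At an unadjusted p under 0.05 there were 2 of the 8 and 0 of the 4, and DESeq2 called 1 of the 8, lower, as did edgeR without IFN library 4.

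The response was next set beside that of L13a KO macrophages, which shares no library with it. Y-linked transcripts were at 1.19 to 3.15 CPM in the IFN-treated and untreated KO libraries. They were at 168 and 134 CPM in WT IFN libraries 4 and 5 and at 185 CPM in untreated WT library 1, so the genotypes differed in this respect as well. In the knockout cells 2581 genes were called (20.6% of those tested; 1527 higher, 12.2%, and 1054 lower, 8.42%). The 1068 genes that rose in both were 80.7% of the WT and 69.9% of the KO rises, and the 573 that fell in both were 65.5% of the WT and 54.4% of the KO falls. Of the WT rises 1318 (99.5%) had the same sign in the knockout, as did 841 of the falls (96.1%). No gene passed the test of the difference between the 2 responses in edgeR (605 at an unadjusted p under 0.05, smallest adjusted p 0.192), DESeq2 called 26, and edgeR called 9 without WT IFN replicate 6. Irf1 rose by log2 4.37 in WT and 4.55 in KO cells, Gbp2 by 8.96 and 9.71, and Cxcl10 by 6.67 and 7.22. All 10 GBPs, all 7 IRGs, 17 of 18 class I genes and 31 of the 32 antiviral genes were called higher in the knockout. Other lists were less alike. Of the 75 cytosolic ribosomal protein genes 17 were called higher in KO and 0 in WT cells, with median log2 fold changes of 0.39 and -0.36. The 38 cell cycle and replication genes had 4 rises and 3 falls in KO, with medians of -0.51 in KO and 0.09 in WT cells. The 6 tested fibroblast and stroma markers had medians of 0.14 in KO and -2.64 in WT cells, with 0 and 1 called lower. For the 4 tested osteoblast markers the medians were -0.63 in KO and -3.19 in WT cells, with 0 and 2 called lower. No member of any of these lists was called for the difference between the responses. Called in opposite directions, and named after their values were seen, were Anapc13 (log2 -0.61 in WT and 0.59 in KO; difference adjusted p = 0.478) and the unnamed gene model Gm2000 (-1.50 and 2.06; 0.192).

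Against IL4-treated WT macrophages, a comparison that uses the same IFN libraries, 1429 genes were higher after IFN (11.4%) and 1138 lower (9.09%). Because both contrasts use the IFN libraries, values are given side by side. Gbp2 was at 17.2, 8.24 and 26.2 CPM in the IL4 libraries, close to its untreated values, and Cxcl10 at 0.216, 0.553 and 1.78 CPM, below all of its untreated values. Socs1 was at 28.5, 53.6 and 76.5 CPM after IL4, between the IFN and untreated levels, as was Cd74 at 1402, 2026 and 3246 CPM. IFN exceeded IL4 for both, by log2 2.24 (adjusted p = 8.71e-04) and 1.66 (0.0052). Jak2 stood at 97.2, 111 and 84.3 CPM after IL4 and was not called between the treatments (log2 fold change 0.14, SE 0.188). Mrc1, lowered by IFN, was at 1753, 1622 and 1931 CPM after IL4 (log2 -5.43 for IFN over IL4, adjusted p = 3.84e-07). Cx3cr1, also lowered by IFN, was at 6.55, 2.76 and 5.35 CPM after IL4 and was not called between the treatments (log2 0.46, adjusted p = 0.63). Tgm2, at 400.0, 244 and 213 CPM after IL4, was higher after IFN than after IL4 (log2 2.70, adjusted p = 8.68e-06).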

How the data were processed

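Per the submitters' processing notes, reads were processed with Bowtie 0.12.8 and RSEM 1.2.3 on mm10. The authors deposited RSEM expected counts of 21954 genes, of which 21.5% were not whole, and TPM (a median-normalised TPM table was not used). Expected counts were rounded to whole numbers, filtered with filterByExpr, scaled by TMM and fitted with edgeR 4.0.16 (robust quasi-likelihood, 1 coefficient for each of the 6 groups, all 18 libraries), with Benjamini-Hochberg adjustment over 12514 genes and a threshold of 0.05. CPM are TMM-scaled. SE is the absolute log2 fold change divided by the square root of F. Ratios on 1 to 3 counts carry an exact interval for counting error only, and folds against 0 counts use a floor of 3 counts over the group. The test was tried on simulated counts, with 2 false calls and 50.7% of 2-fold and 86.4% of 4-fold changes recovered. These counts were drawn with the fitted dispersions and held 67 genes changed 1.5-fold, 67 changed 2-fold and 66 changed 4-fold. Far more genes were called in the data, so these values may not carry over. GENCODE vM21 positions on GRCm38 matched 99.55% of symbols, and promoters are RefSeq's. DESeq2 1.42.0, limma 3.58.1 on log2 TPM, other filters and scalings, and left-out libraries were alternatives. The genes and lists were chosen with earlier results of these data known. Named genes are the 15 largest rises and falls of at least 5 CPM without overlap, the 10 largest gains and losses of TPM, up to 4 members of each list with the lowest p, and preset genes. The biological coefficient of variation was 0.301.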

Additional observations from a re-analysis of the deposited data

How the results depend on the processing

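The count of rises after IFN ranged between 1051 and 1152 when 1 library was left out, against 1324 in all 6, and that of falls between 584 and 749, against 875. Within the libraries with Y-linked transcripts, alternatives chosen after seeing the data and resting on a lone untreated library, 518 rises and 273 falls were called, and within those without such transcripts, resting on a lone IFN library, 907 rises and 284 falls; the lone library is assumed to vary like the other groups. Of the 2199 calls, DESeq2 kept nearly all and made 2774, RLE scaling made 2215, no filter 2034, a fit of the compared groups alone 2268, Y-linked transcripts as a covariate 2202 (2000 shared), and untreated 2 and 3 summed 1651. The difference between the WT and L13a KO responses had 0 calls, 26 with DESeq2, and between 0 and 9 with 1 library left out. For IFN against IL4 in WT cells the left-out counts ranged between 1163 and 1291 higher and between 875 and 989 lower. No paired analysis was possible for IFN against untreated or IL4-treated WT cells because these groups share no replicate number. For the genotype difference the replicate block gave 0 calls, as without it. No named gene changed sign with a call. The depth of 3 libraries a group limits small changes, so a gene not called may still have changed. On simulated counts 5.97% of 1.5-fold changes were recovered. Only 67 genes were changed by that fold there, against 2199 calls in the data, so this share may not carry over to the data.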
